A study of Mus musculus with 2 samples.

Results

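The cytosolic ribosomal protein genes were measured in single cells of mouse lymph nodes. Members were all rows of the count files whose gene symbol starts with Rps or Rpl and a digit, together with Rpsa, Rplp0, Rplp1 and Rplp2, without rows named as pseudogenes and without the ribosomal S6 kinases. This gave 85 of the 25815 genes in the files: 31 proteins of the small subunit, 43 of the large subunit, 3 of the ribosomal stalk, 7 paralogs (Rpl22l1, Rpl36al, Rpl39l, Rpl3l, Rpl7l1, Rps27l and Rps27rt) and Rps19bp1, which the name pattern takes in although it encodes a binding protein of Rps19 and not a ribosomal protein. The cells came from inguinal lymph nodes that drain a tumour, 13 nodes pooled from wild-type (WT) mice and 9 pooled from ATG5LEC-KO mice, in which the autophagy gene Atg5 is deleted in lymphatic endothelial cells (LECs). The labels name neither the promoter that drives the deletion nor the part of the gene removed, nor the tumour or the age of the animals. Viable cells were sorted as endothelial (CD31+, CD45-, Ter119-) or immune (CD45+, CD31-, Ter119-), and both sorts went into 1 single-cell library per genotype, so pooling set the ratio of endothelial to immune cells. With no replicates, no difference below has a replicate check and no test was made.

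Ribosomal proteins are the structural partners of ribosomal RNA in the small subunit, which reads the mRNA, and in the large subunit, which joins amino acids. Most vertebrate members belong to the 5′ TOP class of mRNAs, which begin with a C followed by a run of C and T and whose translation is set by mTORC1 and the binding protein Larp1. In lymph nodes, resting lymphocytes are small cells with little cytoplasm, and they make new ribosomes when they are activated to divide.

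The bases around the annotated start sites are shown for the members on which the results below turn: Rpl28, Rps18 and Rpl35, which differed between the libraries, Rps24, the member with the most unique molecular identifiers (UMIs) over all cells, and the paralog sets of Rps27 and Rpl22. The sequences are from RefSeq on GRCm38.p6 (mm10), run 5′ to 3′ on the strand of the gene, and hold 30 bases before and 20 bases from the start. Capitals mark a C followed by at least 4 bases that are C or T, where this C lies within 5 bases of the annotated start. Where several C qualify, the run is marked from the one nearest the start. Bases before the capitals can thus also be C or T. They lie at chr7:4792935-4792984 (plus strand) for Rpl28, chr17:33955646-33955695 (minus) for Rps18, chr2:39005112-39005161 (minus) for Rpl35, chr14:24490648-24490697 (plus) for Rps24, chr3:90213629-90213678 (minus) for Rps27, chr9:114982720-114982769 (minus) for Rps27rt, chr9:66946056-66946105 (plus) for Rps27l, chr4:152325696-152325745 (plus) for Rpl22 and chr3:28805478-28805527 (plus) for Rpl22l1.
Rpl28: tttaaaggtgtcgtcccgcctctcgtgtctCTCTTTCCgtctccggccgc
Rps18: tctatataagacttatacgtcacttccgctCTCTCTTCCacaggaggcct
Rpl35: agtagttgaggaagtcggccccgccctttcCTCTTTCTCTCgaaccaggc
Rps24: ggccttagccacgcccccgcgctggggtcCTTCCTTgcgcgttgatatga
Rps27: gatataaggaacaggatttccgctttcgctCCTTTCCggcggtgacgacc
Rps27rt: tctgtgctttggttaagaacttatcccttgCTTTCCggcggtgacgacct
Rps27l: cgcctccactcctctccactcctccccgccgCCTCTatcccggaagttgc
Rpl22: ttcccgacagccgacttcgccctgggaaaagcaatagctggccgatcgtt
Rpl22l1: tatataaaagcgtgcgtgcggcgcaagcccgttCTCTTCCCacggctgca

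A start sequence was found for 65 of the 85 members. Such a run, on the strand of the gene only, was present at a start of 30 of them (46.2%), against 21.2% of all 27025 genes with a start sequence and 24.6% of 69 genes of the mitochondrial ribosome. A C at the annotated base itself, followed by at least 4 C or T, was held by 14 members (21.5%). The same held for 3.0% of all genes and 0.0% of the mitochondrial ribosomal protein genes. C or T before that base were not counted against it. The stretch in capitals is longest for Rpl35, with 11 bases, and further C and T stand directly before it. The window of Rpl22 holds no run by this rule. A match describes the letters only, and an annotated start that is off by a few bases moves it.

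The libraries were close in depth, at 23649554 (WT) and 23089918 UMIs. After filtering, 3848 and 4153 cells remained, with medians of 3515 and 3344 UMIs per cell, and 15 barcodes were called as cells in both libraries. Clusters were named LEC-like, blood endothelial cell (BEC)-like, B cell-like, T cell-like and myeloid-like from marker lists, and are called by these names below. They held 727 and 219 LECs, 639 and 516 BECs, 1377 and 1592 B cells, 1006 and 1664 T cells and 57 and 89 myeloid cells in the WT and the ATG5LEC-KO library. The ribosomal protein genes were kept out of the genes used for clustering. The 10 LEC markers summed to 8381 and 13133 CPM (UMIs per 1000000 non-mitochondrial UMIs of the class) in LECs, the 10 B cell markers to 91.0 and 71.2 CPM and the 10 T cell markers to 81.7 and 141 CPM, against 11337 and 10984 CPM of the B cell markers in B cells. Both libraries mixed male and female cells, and of the LECs that could be assigned a sex 71.2% and 50.3% were male. Atg5 was counted at 41.1 CPM (95% interval 36.1-46.6) in WT LECs and 43.6 CPM (34.0-55.0) in the others. Myeloid cells held 99.5 CPM (71.7-134) and 40.3 CPM (26.5-58.6), from 42 and 27 UMIs. Reads from the 3′ end outside a deleted part check nothing, so the second library is called the KO-labelled library.

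The summed level of the members differed most between cell classes. It is given as the percent of all UMIs of a class without mitochondrially encoded genes, with exact 95% intervals for the error of counting alone, which leave out how cells, animals and preparations vary. T cells held the highest share of the 5 classes, 16.2% (WT) and 16.5% (KO-labelled library). B cells followed with 11.2% and 10.99%, and myeloid cells with 9.74% and 8.88%. Both endothelial classes lay well below the lymphocytes: LECs held 5.61% (5.59-5.62) and 6.14% (6.10-6.18), and BECs 5.46% and 5.34%. The order T, B, myeloid, LEC, BEC was the same in both libraries. Relative to B cells of the same library, the LEC share was 0.499 (WT) and 0.558 (KO-labelled), and the T cell share 1.44 and 1.503. LECs and BECs were the nearest neighbours, with a BEC over LEC ratio of 0.975 and 0.870.

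The same order was seen in single cells. The median cell held 16.5% and 16.8% of its UMIs in these genes among T cells, 10.8% and 10.8% among B cells, 8.66% and 7.52% among myeloid cells, 5.45% and 5.85% among LECs, and 4.50% and 4.40% among BECs. Cells with at most 2% were 8.67% and 8.22% of LECs, 10.2% and 12.4% of BECs and 10.5% and 12.4% of myeloid cells, but 1.16% and 1.51% of B cells and 0.497% and 0.721% of T cells. They gathered in some clusters. Of the 63 and 18 such LECs, 24 and 10 lay in a cluster with 14.6% and 15.9% mitochondrial UMIs. Of the 65 and 64 such BECs, 18 and 27 lay in a cluster with 12.3% and 12.8%. Of the 6 and 11 such myeloid cells, 5 and 5 lay in a cluster led by S100a8 and S100a9. Depth per cell also differed: the median cell held 8265 and 7909 UMIs among LECs, 4520 and 4599.5 among BECs, 2718 and 2713 among B cells, 3478.5 and 3639.5 among T cells and 6950 and 6734 among myeloid cells. Its order was not that of the shares. Among cells with at least 2000 UMIs, each thinned to 2000, the LEC share was 0.517 of that of B cells over both libraries. Before this step, with shallower cells included, it was 0.528. Thinning keeps the expected share of a cell, so this value does not test the part of depth. B cells under the limit, 344 (WT) and 388 (KO-labelled), dropped out, as did 23 and 9 LECs. Thinning also gives each kept cell the same weight, whereas the summed share weights cells by their UMIs. Which of these moved the value was not tested. Barcodes with fewer than 200 UMIs, which hold mostly free RNA, carried 5.12% and 5.15%, close to the endothelial shares and below those of the lymphocytes. How much of the share of any class came from free RNA was not tested.

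**Figure D1:**
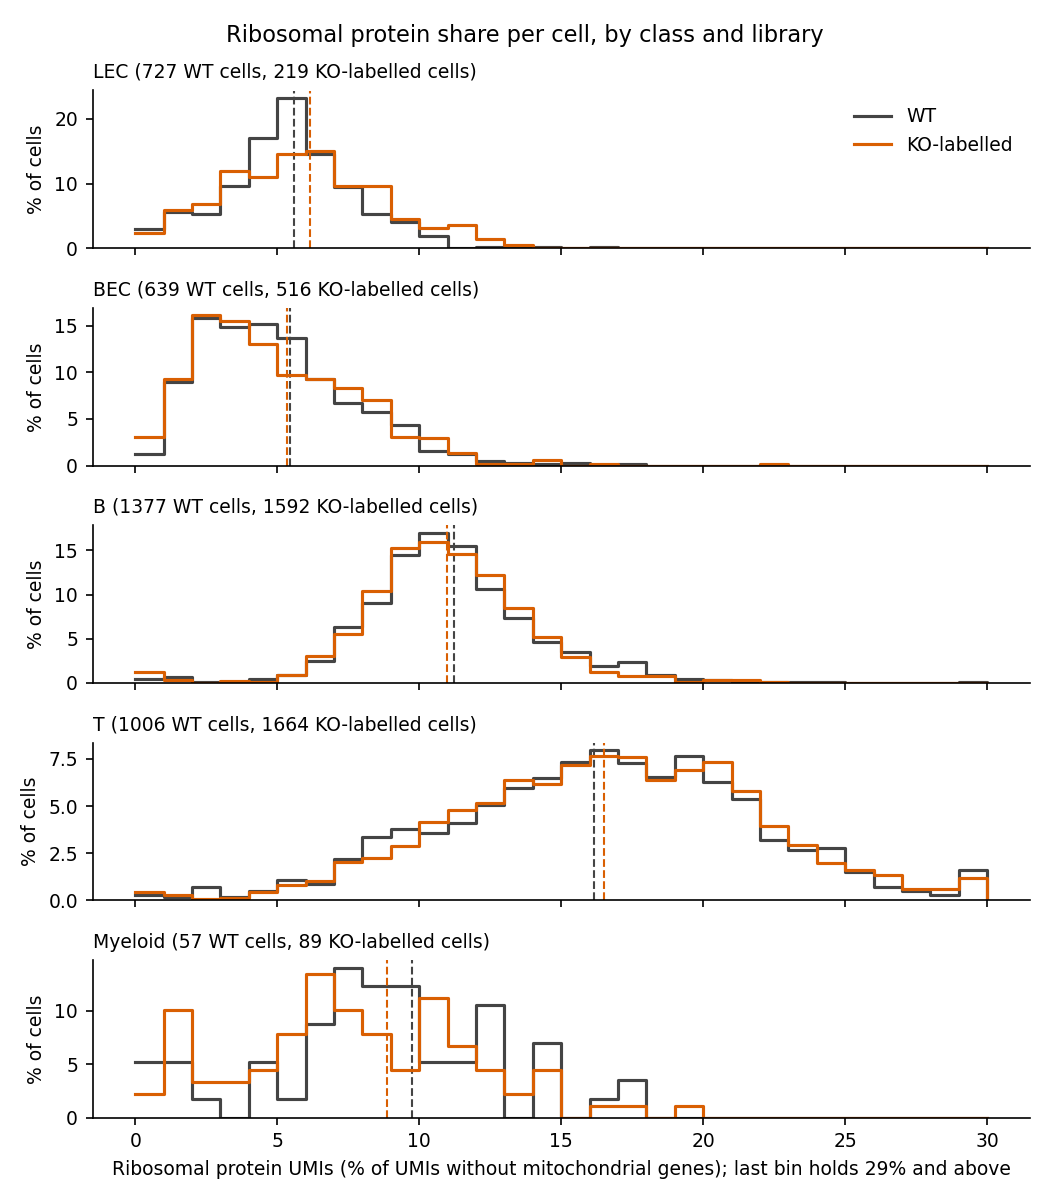
Percent of the cells of a class (y axis) by the percent of a cell's non-mitochondrial UMIs in the 85 members (x axis), for 5 classes and both libraries; dashed lines mark the summed share and the last bin holds all higher values. T cells lie furthest to the right, with medians of 16.5% and 16.8%, and LECs and BECs furthest to the left.

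Within the classes, sub-classes spread the share further. CD8 T cell-like cells held 18.4% and 18.8% in the WT and KO-labelled libraries, CD4 T cell-like cells 16.1% and 16.3%, and regulatory T cell-like cells, which restrain other T cells, 11.5% and 11.2%. Among LECs, floor-like cells, which resemble the lining of the subcapsular sinus facing the node, held 7.29% and 7.60%, medullary or paracortical-like cells 6.35% and 6.72%, and ceiling-like cells, which resemble its outer wall, 5.10% and 5.31%. The ceiling-like cells (509 and 110) included a cluster of 40 and 23 cells that held only 2.43% and 2.47%. Its mitochondrial share was 14.6% and 15.9%, against 7.47% and 11.4% over all ceiling-like cells. Among BECs, cells like high endothelial venules, where lymphocytes enter the node, held 6.50% and 6.57%, capillary-like cells 5.77% and 6.09% and arterial-like cells 3.74% and 4.57%. The order of these 3 T cell and 3 LEC sub-classes was the same in both libraries. That of the BEC sub-classes was not: tip-like cells, at 5.24% and 4.46%, lay above arterial-like cells in the WT and below them in the KO-labelled library, and venous-like cells (26 and 9 cells) held 6.46% and 5.195%. Cycling cells were not uniformly higher: cycling T cells (17 and 20 cells) held 11.6% and 12.1%, below CD4 and CD8 T cells. Cycling myeloid cells (8 and 30 cells) held 12.3% and 10.1% against 9.11% and 7.71% of the other myeloid cells. Among them, a cluster led by Xcr1 (6 and 18 cells) held 12.9% and 11.6%. The rest, a cluster led by F13a1 (2 and 12 cells), held 9.53% and 7.004%, in the KO-labelled library below the myeloid cells outside the cycling sub-class. The part of cycling in the myeloid difference was not tested.

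**Figure D2:**
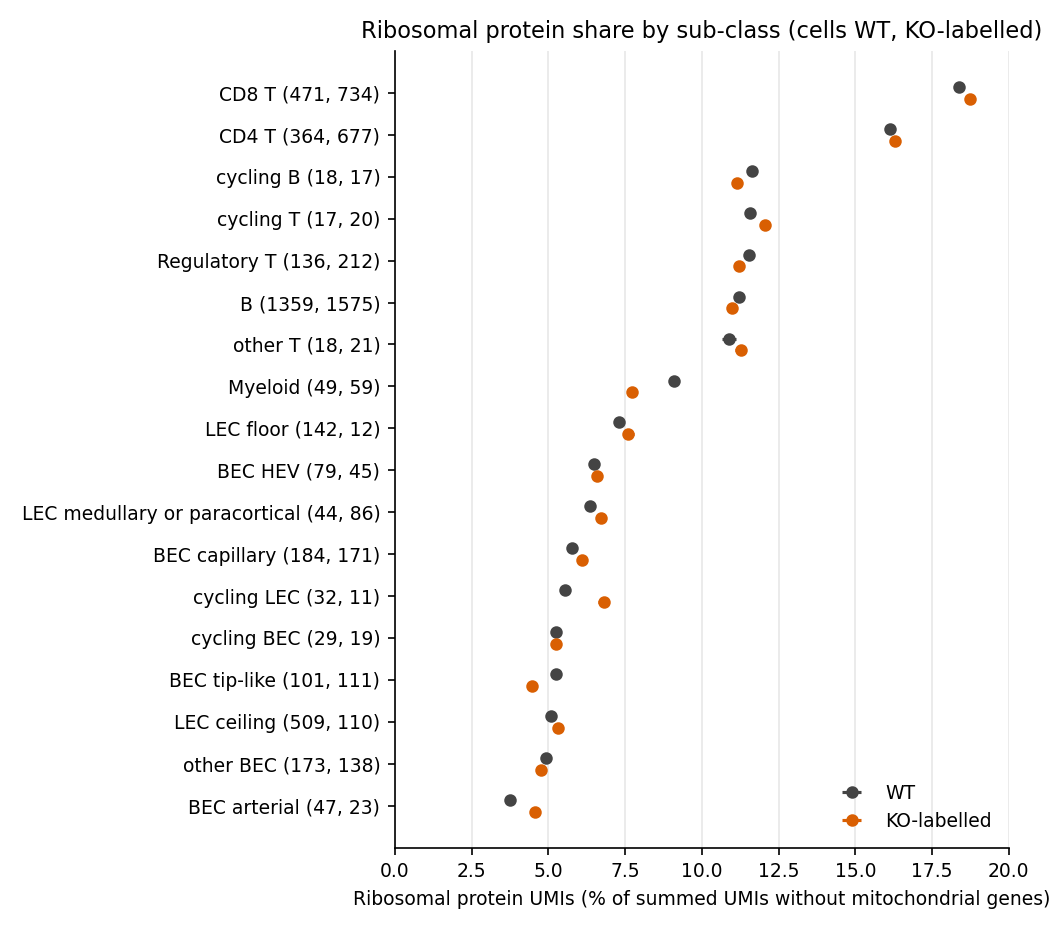
Percent of non-mitochondrial UMIs in the 85 members (x axis) for each sub-class with at least 10 cells in each library (y axis) in the WT and KO-labelled libraries; horizontal bars are exact 95% binomial intervals that cover counting error only. CD8 T cell-like cells lie highest at 18.4% and 18.8%, and the 4 LEC sub-classes lie between 5.10% and 7.60%.

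Single members followed the class differences to unequal degrees. Each class was compared with B cells within its library, over genes with at least 20 UMIs on both sides together, and a ratio of at least 1.5-fold either way was counted. In WT LECs 70 of 83 members were at least 1.5-fold lower than in B cells and 2 at least 1.5-fold higher, where 28.1% and 37.4% of all genes were. In KO-labelled LECs 62 were lower and 2 higher, beside 30.4% and 35.6%. The median log2 ratio of the members was -1.03 and -0.84, against 0.10 and 0.06 over all genes. In BECs 68 and 69 members were lower (28.8% and 30.5% of all genes) and 1 was higher in each library (34.4% and 33.8%), with member medians of -1.05 and -0.97. T cells had 24 and 37 members higher than B cells (20.9% and 21.9% of all genes) and 1 and 0 lower (19.3% and 19.5%), with medians of 0.51 and 0.56. The 23 members that were higher in both libraries numbered 10 among cells with at most 10% mitochondrial UMIs. Myeloid cells had 2 and 1 members higher (20.8% and 24.1%) and 8 and 10 lower (38.8% and 35.4%), and their medians of -0.24 and -0.28 lay near those of all genes, -0.30 and -0.21. As a share of the ribosomal protein UMIs, which takes out the difference in the summed level, 7 members differed from B cells by 1.5-fold in LECs of both libraries, 11 in BECs, 1 in T cells and 7 in myeloid cells. The share of all genes was not counted on this scale, nor for calls made in both libraries.

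Among the small subunit genes, Rps3 stood apart in LECs. Rps3 encodes a protein at the channel where mRNA enters the small subunit. The gene is at 99477896-99483738 of chromosome 7 (minus strand). In the single transcript model checked, which is 1908 bases long, none of the 50-base words in the last 300 bases is shared with another gene. Where the counted reads lie on the transcript was not checked, so reads from other ends may be shared. Its level in the WT library was 2436 CPM in LECs, 936 in BECs, 1397 in B cells, 2130 in T cells and 1156 in myeloid cells, and in the KO-labelled library 2236, 855, 1235, 2036 and 1014 CPM. In both libraries LECs were highest and BECs lowest. T cells came next to LECs, and they too were at least 1.5-fold above B cells in both libraries. The LEC over B cell ratio was 1.74 (1.69-1.80) and 1.81 (1.74-1.89), whereas BECs were at 0.670 and 0.692. Rps3 made up 4.35% and 3.64% of the ribosomal protein UMIs of LECs, but 1.24% and 1.12% of those of B cells and 1.71% and 1.60% of those of BECs.

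Within LECs, Rps3 was highest in floor-like cells, at 3808 and 3635 CPM, followed by medullary or paracortical-like cells at 3121 and 2633 CPM and ceiling-like cells at 2041 and 1726 CPM. Cells like high endothelial venules were the nearest BEC sub-class, at 1594 and 1732 CPM. Ceiling-like cells, the largest LEC sub-class, lay below the T cells of the same library. Barcodes with fewer than 200 UMIs held 825 and 593 CPM. Rps3 and the paralog Rps27l were the 2 members at least 1.5-fold higher in LECs than in B cells in both libraries.

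Rps27, another protein of the small subunit, had the opposite pattern. It was counted at 681 and 787 CPM in LECs and 639 and 682 CPM in BECs, against 2515 and 2834 CPM in B cells and 2853 and 3290 CPM in T cells. The ratio to B cells was 0.271 and 0.278 in LECs and 0.254 and 0.241 in BECs, and 0.550 and 0.408 in myeloid cells. All 50-base words of its 3′ end also occur in other genes, so its count rests on how the pipeline placed such reads. Rpsa, which forms part of the head of the small subunit and is also known as a laminin receptor precursor, had LEC over B cell ratios of 0.349 and 0.356. Rps15a had BEC over B cell ratios of 0.337 and 0.370.

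Large subunit genes that were low in LECs included Rpl12, which sits at the base of the stalk, and Rpl17, which reaches into the tunnel where the peptide leaves. The LEC over B cell ratio was 0.337 and 0.381 for Rpl12 and 0.335 and 0.393 for Rpl17. Rpl15 was near the level of B cells, at 0.804 and 0.996. Rpl41, which encodes a very short peptide, was counted at 537 and 548 CPM in BECs and 569 and 600.3 CPM in B cells, ratios of 0.944 and 0.912, while Rpl21 was at 0.351 and 0.335 in BECs. In T cells, Rpl5, which carries the 5S RNA into the large subunit, was 1.75 and 1.88 times as high as in B cells, and Rpl12 1.78 and 1.88 times.

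The stalk genes Rplp0, Rplp1 and Rplp2 encode the acidic proteins that recruit elongation factors to the ribosome. Rplp0 was at 1589 and 1190 CPM in T cells, 767 and 513 in B cells, 1032 and 717 in myeloid cells, 584 and 384 in BECs and 536 and 446 in LECs. It was 2.07 (1.98-2.17) and 2.32 (2.21-2.43) times as high in T cells as in B cells, and Rplp1 was 2.10 and 2.31 times as high. In myeloid cells Rplp0 was also above B cells, at 1.35 and 1.40 times their level, where the summed share was at 0.867 and 0.808. No 50-base word of the 3′ end of Rplp0 is shared with another gene, whereas 66.9% of those of Rplp1 and 80.1% of those of Rplp2 are.

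**Figure D3:**
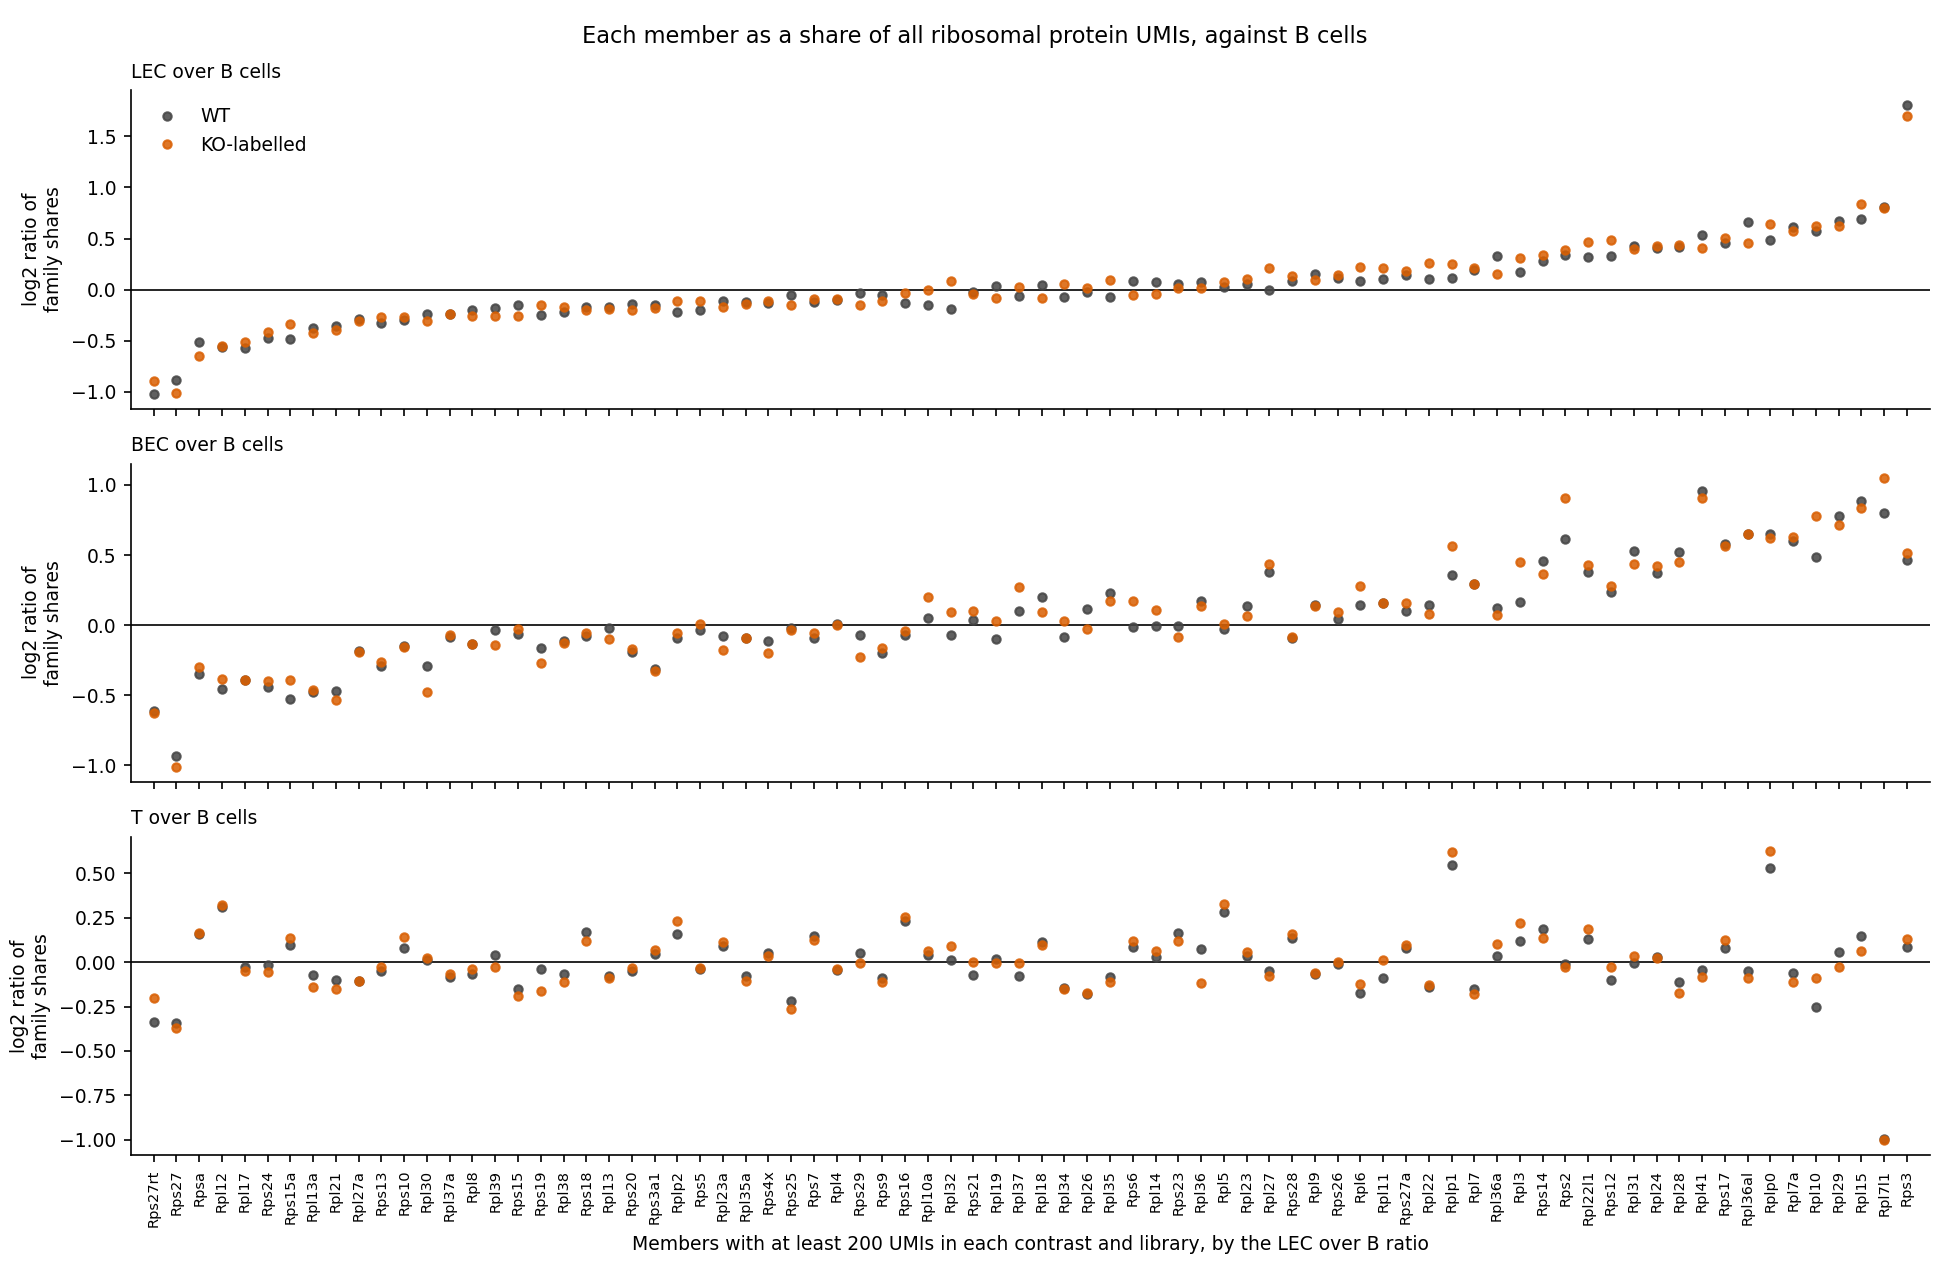
Log2 ratio (y axis) of each member's share of the ribosomal protein UMIs in LECs (top), BECs (middle) and T cells (bottom) over B cells, for members with at least 200 UMIs in each contrast and library (x axis, in the order of the LEC ratio, a few left out); colours are the libraries. Rps3 lies furthest above 0 in LECs, Rps27 lies below 0 in all 3 panels, and Rplp0 and Rplp1 lie furthest above 0 in T cells; Rps27l is not shown because it fell short of 200 UMIs in the contrast of myeloid with B cells.

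The paralogs divided the classes by how much of a pair they supplied. Rps27l, a target of p53 that encodes a near copy of the Rps27 protein, was at 105 and 132 CPM in LECs, 93.1 and 98.9 in BECs, 149 and 113 in myeloid cells, 33.7 and 34.6 in B cells and 37.7 and 36.3 in T cells. The gene is at 66946086-66949516 of chromosome 9 (plus strand), and 21.9% of the 50-base words of its 3′ end are shared. The LEC over B cell ratio was 3.12 (2.57-3.80) and 3.82 (3.09-4.72). Of the UMIs of Rps27 and Rps27l together, Rps27l gave 13.4% (12.4-14.4) and 14.4% (12.6-16.3) in LECs, 12.7% and 12.7% in BECs and 9.74% and 8.93% in myeloid cells, but 1.32% and 1.21% in B cells and 1.31% and 1.09% in T cells. The endothelial and myeloid classes thus lay well apart from the lymphocytes, and barcodes with fewer than 200 UMIs were between them at 3.68% and 2.65%. Cycling lymphocytes were higher than the rest, with 104 and 89.0 CPM of Rps27l in cycling B cells and 146 and 139 CPM in cycling T cells.

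The other pairs differed less. Rpl22l1 gave 29.8% and 25.4% of the UMIs of Rpl22 and Rpl22l1 in LECs, 30.2% and 27.3% in BECs, 26.8% and 22.8% in B cells, 30.7% and 26.9% in T cells and 19.1% and 18.5% in myeloid cells, and was lower in the KO-labelled library in each class. Rpl36al gave 28.0% and 31.1% of its pair with Rpl36a in LECs, 30.7% and 35.3% in BECs, 23.6% and 26.8% in B cells, 22.5% and 24.3% in T cells and 37.3% and 41.8% in myeloid cells, higher in the KO-labelled library in each class. It is the autosomal copy of the X-linked Rpl36a, whose 3′ words all occur in other genes, so the division is uncertain. Rpl7l1 gave 7.84% and 7.85% of its pair with Rpl7 in LECs and 2.998% and 3.10% in T cells, and was the 1 member at least 1.5-fold lower in T than in B cells of both libraries as a share of the ribosomal protein UMIs. Rps27rt cannot be told apart from Rps27 with certainty, since 88.5% of its 3′ words are shared. Rpl39l had 33 UMIs and Rpl3l 5 UMIs in all cells, too few for a ratio, and Rps19bp1 had 171.

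**Figure D4:**
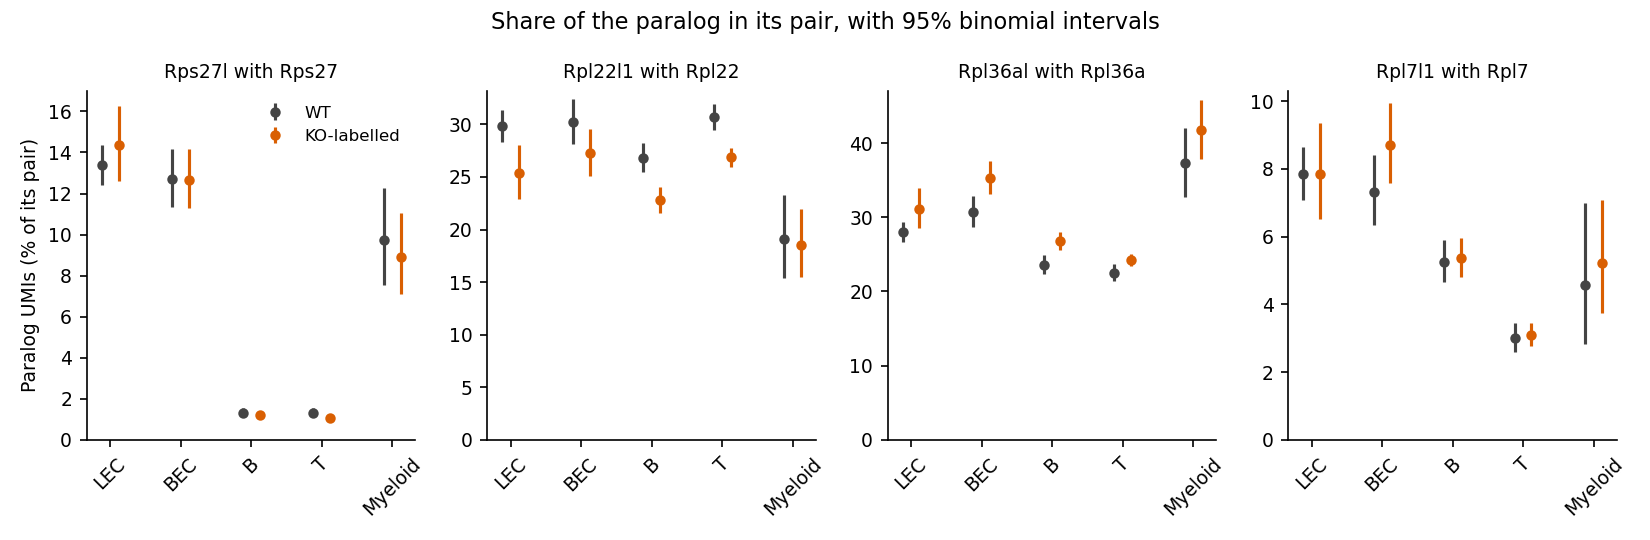
Percent of the UMIs of a pair that come from Rps27l, Rpl22l1, Rpl36al or Rpl7l1 (y axis) in 5 classes of both libraries (x axis); bars are exact 95% binomial intervals that cover counting error only. Rps27l lies between 8.93% and 14.4% in LECs, BECs and myeloid cells and at most at 1.32% in B and T cells.

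Between the libraries, the summed share differed little. The ratio of the KO-labelled over the WT share was 1.095 (1.088-1.103) in LECs, 0.977 (0.970-0.984) in BECs, 0.978 (0.974-0.982) in B cells, 1.02 (1.02-1.03) in T cells and 0.912 (0.900-0.923) in myeloid cells. LECs, the class the deletion is meant for, and T cells were above 1, and the other 3 classes were below it. Whether the classes differ from each other in this ratio was not tested. The direction turned to 1.03 in female BECs, to 0.996 in T cells with at most 10% mitochondrial UMIs and to 1.001 in male myeloid cells.

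The makeup of the LECs also differed between the libraries. In WT and KO-labelled LECs, floor-like cells made up 19.5% and 5.48%, medullary or paracortical-like cells 6.05% and 39.3% and ceiling-like cells 70.01% and 50.2%. Within sub-classes the ratio was 1.04 (1.03-1.05) in ceiling-like, 1.04 (1.02-1.07) in floor-like (142 and 12 cells), 1.06 (1.04-1.07) in medullary or paracortical-like and 1.23 (1.19-1.26) in cycling LECs (32 and 11 cells), so it was above 1 in each of the 4 and nearer to 1 in 3 of them than over all LECs. Ceiling-like cells themselves came from different clusters in the libraries: 4 of their 9 clusters had at least 10 cells in each, with 294 of the 509 WT and 99 of the 110 KO-labelled cells. Within these 4 the ratio was 1.26, 1.27, 1.02 and 0.917, so it went both ways. The mitochondrial share of UMIs was 7.25% and 10.5% in LECs and was closer in BECs, at 10.01% and 10.1%. In male LECs the ratio was 1.03 and in female LECs 1.18. The part of makeup, of the mitochondrial share and of sex in the LEC ratio was not tested further. Among BEC sub-classes with at least 10 cells in each library the ratio went both ways, from 0.851 (0.837-0.864) in tip-like to 1.22 (1.18-1.27) in arterial-like cells (47 and 23 cells). Among myeloid cells, cycling cells were 14.0% of the WT and 33.7% of the KO-labelled class, and the ratio was 0.847 in the cells outside the cycling sub-class. Male cells were 93.5% and 55.7% of the myeloid cells assigned a sex, with 3 female cells in the WT library.

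Between 5 and 8 members per class differed by 1.5-fold between the libraries, and how this compared with all genes depended on the minimum count. In LECs 5 of 83 members did, beside 24.3% of the 11738 genes with at least 20 UMIs: Rpl35 was higher (11.4% of all genes), and Rpl8, Rps18, Rpl28 and Rpsa were lower (12.9%). The median log2 ratio of the members was 0.16 in LECs, against 0.04 over all genes, with 59 members above 0 and 24 below. The large subunit had a median of 0.18, the small subunit 0.12 and the stalk -0.26, and all 3 stalk genes lay below 0. In BECs 7 of 83 members differed by 1.5-fold (15.8% of all genes), 1 higher (6.49%) and 6 lower (9.28%). The higher one was Rps19bp1, which is no ribosomal protein gene, at 10 and 20 UMIs. In B cells 5 did (11.5%), 0 higher (5.18%) and 5 lower (6.34%), and in T cells 5 (12.0%), 0 higher (5.14%) and 5 lower (6.88%). In myeloid cells 8 of 82 did (31.1%), 0 higher (19.8%) and 8 lower (11.2%). Their medians were -0.01, -0.05, 0.04 and -0.13, against -0.02, 0.01, 0.00 and 0.09 over all genes. At a minimum of 200 UMIs, 5 of 82 members differed by 1.5-fold in LECs (12.8% of all genes), 6 in BECs (5.59%), 5 in B cells (1.92%), 5 in T cells (2.04%) and 8 of 77 in myeloid cells (14.9%). At this depth members passed more often than all genes in B and T cells, and less often in LECs. In BECs and myeloid cells they passed at a rate nearer to that of all genes. The LEC count was 3 without cells over 10% mitochondrial UMIs, and centring on the median over all genes gave 8 in B cells and 14 in myeloid cells. Shares over all genes were not counted under these settings.

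The same 4 members, Rpl8, Rpl28, Rps18 and Rpsa, were at least 1.5-fold lower in the KO-labelled library in all 5 classes. Of the 766 genes with at least 200 UMIs in each class, 6 did this, or 0.783%, and the other two were Crip1 and Tmsb10. No gene was at least 1.5-fold higher in all 5 classes (0.0%). The 4 members were also lower in barcodes with fewer than 200 UMIs, which hold mostly free RNA of the same libraries. What set them apart between the libraries was not tested, and the genotype, the pool of animals and the library preparation cannot be told apart.

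Rpl8 encodes a protein near the site where the large subunit forms peptide bonds. The gene is at 76904078-76906314 of chromosome 15 (plus strand), and 25.1% of its 3′ words are shared with other genes. Its level was 272.1 CPM in WT and 143.0 CPM in KO-labelled LECs, 277 and 135 in BECs, 624 and 307 in B cells, 857 and 449 in T cells and 485 and 201 in myeloid cells. In each class it was lower in the KO-labelled library, with ratios of 0.526 (0.456-0.604) in LECs, 0.489 in BECs, 0.491 in B cells, 0.524 in T cells and 0.415 in myeloid cells. In barcodes with fewer than 200 UMIs it was at 193 and 115 CPM.

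Rpl28, a protein of the large subunit, was counted at 737 and 454 CPM in LECs, 771 and 398 in BECs, 1106 and 599.6 in B cells, 1472 and 798 in T cells and 1125 and 671 in myeloid cells. The LEC ratio was 0.615 (0.569-0.666) and the B cell ratio 0.542, and low-count barcodes held 534 and 279 CPM. Rps18, in the head of the small subunit, was at 390 and 236 CPM in LECs, a ratio of 0.605 (0.542-0.675), at 882 and 486 CPM in B cells and at 397 and 230 CPM in low-count barcodes. For Rpsa, LECs held 242 and 157 CPM, a ratio of 0.647 (0.564-0.740), B cells 693 and 439.6 CPM and low-count barcodes 209 and 149 CPM. Of the 3′ words, 92.4% are shared with other genes for Rpl28, 78.5% for Rps18 and 74.1% for Rpsa, and Rpl28 and Rps18 overlap a coding gene on the opposite strand. The LEC log2 ratio stayed below 0 for these 4 members under each alternative computed. Rpl8 was at -0.59 in female cells and Rpl28 at -0.56 in cells with at most 10% mitochondrial UMIs.

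Other members were lower without passing 1.5-fold in all 5 classes. Rps19, mutated in Diamond-Blackfan anaemia, had log2 ratios of -0.39 in LECs, -0.76 in BECs, -0.65 in B cells, -0.71 in T cells and -0.65 in myeloid cells. The stalk gene Rplp0 was at -0.26 in LECs, with a ratio of 0.834 (0.768-0.904), and at -0.60, -0.58, -0.42 and -0.53 in BECs, B cells, T cells and myeloid cells. Rplp2 was nearest to 0 in LECs, at 0.939 (0.847-1.04) as a ratio, an interval that spans 1. Both Rplp0 and Rplp2 were also lower in low-count barcodes, with log2 ratios of -0.57 and -0.17.

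Rpl35, a protein beside the exit of the peptide tunnel, was the member furthest above 0 in LECs. The gene is at 39001580-39005624 of chromosome 2 (minus strand), and 96.0% of its 3′ words are shared. Its level was 574 and 982 CPM in LECs, 689 and 904 in BECs, 1209 and 1649 in B cells, 1639 and 2294 in T cells, and 1011 and 1272 in myeloid cells. It was higher in the KO-labelled library in each class, by 1.71 (1.61-1.82) in LECs and 1.31, 1.36, 1.40 and 1.26 in the others, and low-count barcodes held 644 and 885 CPM. Rpl15 and Rpl32 had log2 ratios of 0.44 and 0.38 in LECs and of 0.08 and 0.10 in BECs. Rps2 had 0.37 in LECs and 0.45 in BECs but -0.04 in low-count barcodes. Rps24, the member with the most UMIs, had 0.35 in LECs and between -0.03 and 0.16 in the other classes. Of the 77 members with at least 200 UMIs in each class, 22 were below 0 and 16 above 0 in all 5, beside 12.7% and 13.8% of all 766 genes at that depth.

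**Figure D5:**
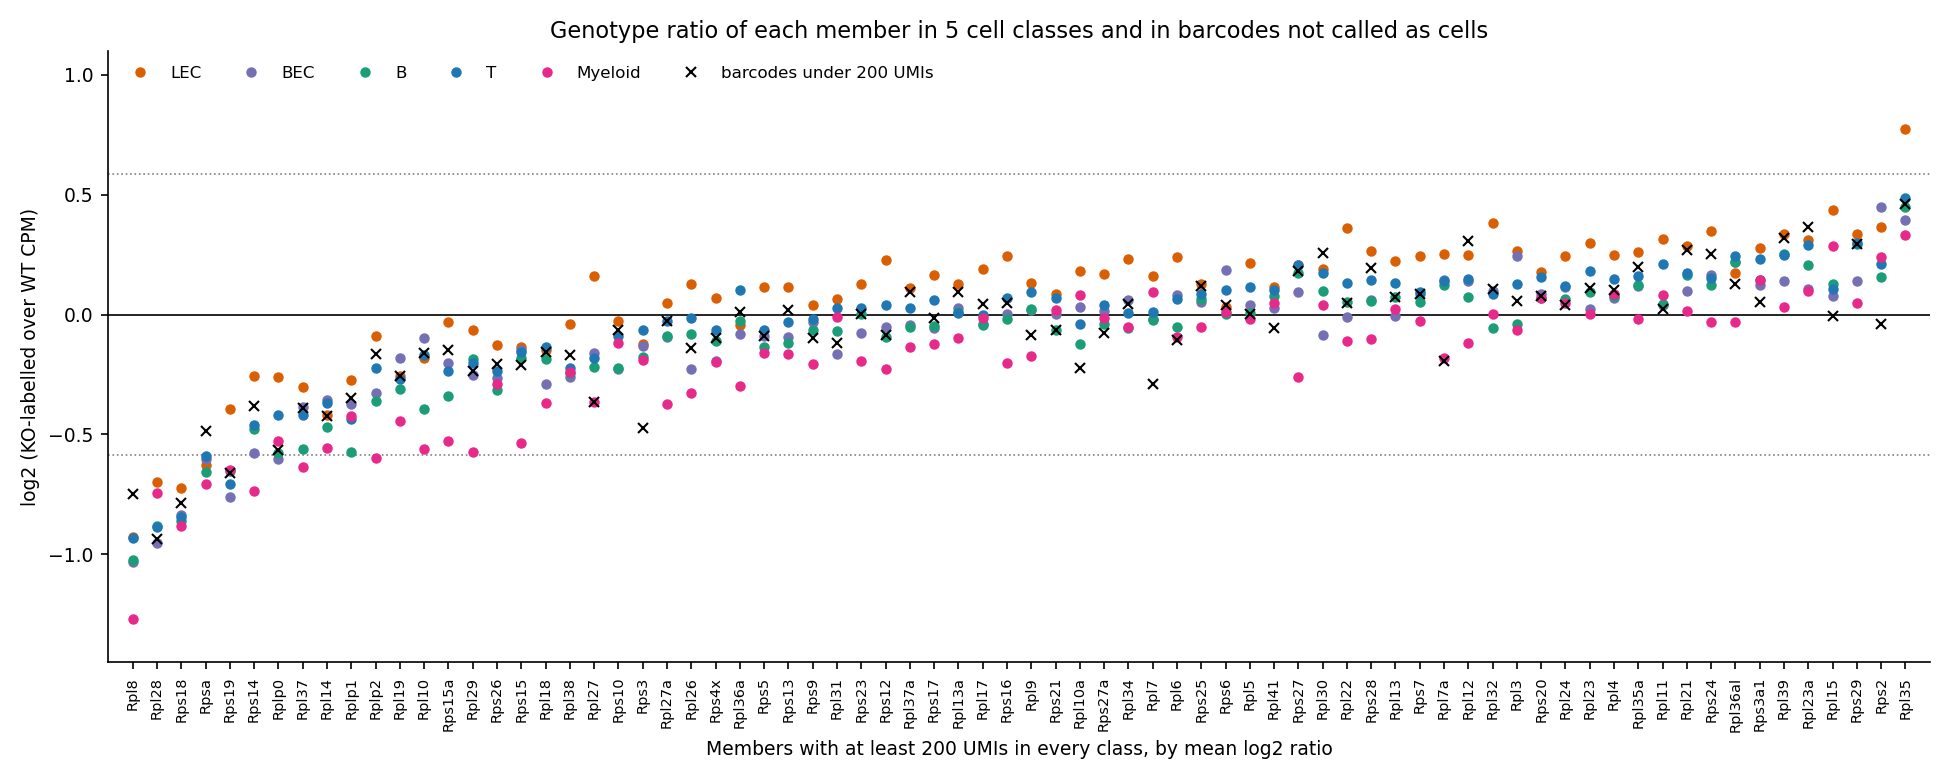
Log2 ratio of the KO-labelled over the WT library (y axis) for 74 of the 77 members with at least 200 UMIs in each of 5 classes (x axis, 1 position per member); colours are classes, crosses are barcodes with fewer than 200 UMIs, and dotted lines mark 1.5-fold. Rpl8, Rpl28, Rps18 and Rpsa lie under the lower line in all 5 classes.

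The X-linked members Rps4x, Rpl10, Rpl36a and Rpl39 were set beside the sex of the cells, since the libraries differed in the share of male cells. In B cells, with 79.6% and 50.5% male among those assigned a sex, the female over male ratio was 1.03 and 1.05 for Rps4x, 1.01 and 0.853 for Rpl10, 1.07 and 1.02 for Rpl36a and 0.944 and 1.02 for Rpl39, against 0.963 and 0.997 for all members together. In T cells it was 0.895 and 0.998 for Rps4x, 0.912 and 0.904 for Rpl10, 0.918 and 0.993 for Rpl36a and 0.987 and 1.005 for Rpl39, against 0.945 and 0.9998 for all members. Genotype log2 ratios in B cells were -0.11, -0.39, -0.03 and 0.25 for these 4 genes in the same order, and 0.07, -0.18, -0.04 and 0.34 in LECs. All 3′ words of Rpl10 and Rpl36a occur in other genes.

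Genes that fuse ubiquitin or a like protein to a ribosomal protein were read next to the members. Rps27a, a member, had log2 ratios of 0.17 in LECs, 0.01 in BECs, -0.04 in B cells, 0.04 in T cells and -0.01 in myeloid cells. Fau, which encodes Rps30 and is no member by name, was counted at 437 and 387 CPM in LECs, a ratio of 0.884 (0.809-0.965), and at 1456 and 1150 CPM in B cells, a ratio of 0.790.

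Companion genes of translation in LECs were taken from lists chosen with these data known. Of 28 other TOP mRNAs and elongation factors, 0 were at least 1.5-fold higher in the KO-labelled library and 1 was lower (11.4% and 12.9% of all genes), and their median log2 ratio was 0.02. Their summed share was 1.77% and 1.74%. Of 26 initiation factors 0 differed by 1.5-fold. Of 43 ribosome biogenesis genes 1 was higher and 4 lower, among them Myc, a transcription factor that drives ribosome production, at 233 and 107 CPM, a ratio of 0.459. Myc was not compared within LEC sub-classes, whose makeup differed between the libraries. Of 29 mTORC1 genes 3 were higher and 2 lower. The 78 genes of the mitochondrial ribosome had 7 higher and 4 lower and a median of 0.21, and their summed share was 0.243% and 0.278%, a ratio of 1.14 (1.104-1.181). Among members, the LEC median was 0.08 for the 30 with a pyrimidine run within 5 bases of a start and 0.16 for the 33 without one. For the 14 with a run counted from a C at the annotated base itself it was 0.00.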

How the data were processed

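The authors ran the BD Rhapsody WTA Analysis Pipeline 1.11, per the file headers, and the submitters' processing notes name mm10. Deposited values are raw counts of every barcode, not normalized, and the molecules after error correction were used here. Cells were called again from the UMI curve (4071 and 4382 barcodes), kept with at least 200 genes and at most 25% mitochondrial UMIs, and cleared of 29 and 31 doublets with Scrublet (0.748% and 0.741%). Both libraries were clustered together in scanpy 1.11.5 (Leiden resolution 1 on 15 neighbours, 30 components and 2000 variable genes). Classes were named from 25 marker lists with thresholds set after the clusters were seen.

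UMIs were summed per class and library and scaled to CPM without mitochondrial genes. Intervals are exact (Clopper-Pearson for shares, conditional binomial for ratios). Genes needed 20 UMIs over both sides of a ratio. The named members were the 3 or 5 most extreme per comparison among those with at least 200 UMIs, the 5 with the most UMIs, stalk genes, paralog pairs, and X-linked and fusion genes, and a few genes that this names are not reported here. Further sub-class, sequence and location details were chosen after values were seen. The members and lists were chosen with earlier results of these data known. The calculation was tested on simulated data. Gene models came from a GENCODE annotation of GRCm38. Shared 3′ ends were counted as 50-base words in the last 300 bases of a single transcript model per gene, and 52 of 85 members shared at least 50% of them. Alternatives covered the denominator, mitochondrial limit, doublets, read counts, resolution, thinning, depth, sex, makeup, centring and fold.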

Additional observations from a re-analysis of the deposited data

Results flagged for a closer look

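The direction of the difference in summed share between the libraries was not the same in all classes. The KO-labelled over WT ratio was 1.095 in LECs and 1.02 in T cells, but 0.977 in BECs, 0.978 in B cells and 0.912 in myeloid cells. With 1 library per genotype, the difference between classes was not tested. Barcodes with fewer than 200 UMIs, which were not called as cells, carried 5.12% (WT) and 5.15% (KO-labelled) of their UMIs in the members. The 5 rows named as ribosomal protein pseudogenes, which the rule leaves out, held 1238 UMIs (WT) and 1487 UMIs (KO-labelled).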

How the results depend on the processing

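No paired analysis was possible because there was 1 library per genotype. Ratios of the summed share are KO-labelled over WT by class, ratios between classes are means of both libraries, and counts are members past the fold by genotype or, against B cells, in the same direction in both libraries. Here members alone were counted, so no share over all genes stands beside a count. The cause of each change was not tested except where the setting itself fixes it. In 15 alternatives the LEC ratio ranged from 1.03 to 1.18, and in 12 the class ratios ranged from 0.508 to 0.568 (LEC over B), 0.788 to 0.954 (BEC over LEC), 1.39 to 1.54 (T over B) and 0.747 to 0.882 (myeloid over B). With all UMIs in the denominator the LEC ratio was 1.06, LEC over B 0.531, BEC over LEC 0.909 and myeloid over B 0.873. With at most 10% mitochondrial UMIs the BEC ratio was 0.997, the T cell ratio reversed to 0.996, LEC over B was 0.568, T over B 1.39 and myeloid over B 0.882, and 3 members passed in LECs and 10 in T over B. With doublets kept, BEC over LEC was 0.928 and T over B 1.48. With reads for UMIs the ratios were 1.107 in LECs, 0.985 in B cells and 1.03 in T cells, and Rps27l gave 12.4% of its pair in LECs, Rpl22l1 27.3% and Rpl7l1 2.57% in T cells, and Rps27rt 3.32% in LECs and 3.55% in T cells. At Leiden resolution 2 the T cell ratio was 1.02 and T over B 1.496. Medians per cell gave 1.07 in LECs, 0.996 in B, 1.02 in T and 0.868 in myeloid cells, and 0.523, 0.788, 1.54 and 0.747 for the 4 class ratios. Thinning gave 1.07 in LECs, 0.961 in BECs, 1.02 in T and 0.878 in myeloid cells, LEC over B of 0.517, T over B of 1.51 and myeloid over B of 0.770. Cells with at least 2000 UMIs gave 0.970 in BECs and a BEC over LEC ratio of 0.930. Male cells gave 1.03 in LECs, 0.963 in B and 1.01 in T cells, a reversed 1.001 in myeloid cells, class ratios of 0.508, 0.954, 1.44 and 0.881, and 13 members in T over B. Female cells gave 1.18 in LECs, a reversed 1.03 in BECs, 0.997 in B, 1.06 in T and 0.884 in myeloid cells, LEC over B of 0.538, T over B of 1.43, myeloid over B of 0.820, 26 myeloid members (from 3 WT cells), and 1.44% for Rps27l, 27.5% for Rpl22l1 and 25.1% for Rpl36al in T cells. Sub-classes with at least 50 cells in each library gave 1.04 in LECs, where only the ceiling-like class remained. Chosen after seeing the data, sub-classes with at least 10 cells gave a reversed 1.01 in BECs, 0.969 in B and 1.02 in T cells, and clusters with at least 10 cells gave 1.13 in LECs and 0.854 in myeloid cells. Centring on the median over all genes gave 8 members in B cells, 14 in myeloid cells and 2 in myeloid over B. As a share of the ribosomal protein UMIs, 4 myeloid members passed by genotype and 7, 11 and 1 against B cells in LECs, BECs and T cells. On that scale the log2 ratio to B cells reversed in LECs for Rpl35 (0.0106), Rpl36a (0.24), Rpl5 (0.0494), Rplp1 (0.19), Rps27a (0.16) and Rps28 (0.11), and in BECs for Rpl32 (0.0112), Rpl35 (0.20), Rpl36a (0.10) and Rps27a (0.13). At the lower fold limit 19, 15, 16, 13 and 23 members passed in LECs, BECs, B, T and myeloid cells, and 76 in T over B and 26 in myeloid over B. At 2-fold 0, 2, 1, 0 and 1 passed by genotype and 25, 41, 2 and 1 against B cells in LECs, BECs, T and myeloid cells. Molecules before error correction and rows named as pseudogenes moved no summed share, class ratio or count. Depth limits the myeloid class, with 57 and 89 cells, most.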
